A study of Mus musculus with 24 samples.

Results

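In MRL/MpJ (MRL) mice, quadriceps muscle that had received an extracellular matrix implant was compared with quadriceps muscle that had received a polyethylene implant, 21 days after injury. The 3 ECM libraries and the 3 PE libraries are 6 of the 24 bulk RNA libraries of the study, picked by strain and treatment alone, and all 14159 rows of the deposited matrix that carry a gene symbol were compared (1 further row has none). Both groups were female mice of the same inbred strain that lost a piece of the quadriceps (volumetric muscle loss, VML), and both wounds were filled: ECM is decellularized porcine small intestine submucosa, placed as a suspension in buffer, and PE is ultra-high molecular weight polyethylene, placed as a powder. The other groups used here are MRL muscle left uninjured, MRL muscle injured and filled with saline, and the ECM and PE groups of C57BL/6 (B6) mice, with 3 libraries in each group and injured muscle also collected at day 21. Whole quadriceps was frozen, so that each library mixes the wound, the implant with its cells, and the muscle and fat around it. The replicates are numbered in the labels, the study treats its 24 libraries as independent, and p-values measure the spread between them.

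MRL mice are known for closing ear wounds with little scar, and they are 1 inbred line. Polyethylene particles cannot be digested. Macrophages that meet such particles surround them, fuse into giant cells and persist, which is known as the foreign body reaction. ECM is digested by macrophages and proteases, and in rodents it draws cells of type 2 immunity, such as eosinophils and alternatively activated macrophages. Adult muscle regrows from satellite cells, which pass through the myogenic factors Myf5, Myod1 and Myog and through embryonic isoforms of actin and myosin before the adult fibre genes are reached, and muscle that fails to regrow is often replaced by fat and scar. In whole tissue, fewer cells of a type and less RNA per cell cannot be told apart.

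Values are log2 CPM (a gene's reads scaled to the size of its library, by the authors with TMM), and a difference is the ECM mean minus the PE mean on that scale, so that a negative value means a higher level in PE. The lowest value in the table, -3.65, stands for a count of 0. The values hold no counts, and the read totals that the study lists for its libraries are not used here, so that no counting error is given for low values.

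PE replicate 2 stood apart from its group before any comparison. Across genes it correlated with the other PE libraries at 0.812 and 0.827, whereas PE replicates 1 and 3 correlated at 0.966 with each other and the ECM libraries at 0.939 to 0.967. In that library, 1083 genes lay more than 2 log2 units above both other PE libraries, against 21 to 120 genes in the other 5 libraries. Muscle fibre markers (Acta1, Ckm, Ttn, Mylpf and Myh4) summed to 147598, 135015 and 134565 CPM in ECM and to 92418, 23167 and 93751 CPM in PE. Macrophage markers (Emr1, Cd68, Csf1r, Mertk, C1qa and C1qb) summed to 80.9, 106 and 112 CPM in ECM and to 129, 1028 and 117 CPM in PE. The labelled tissue was therefore muscle in every library by its fibre markers, and PE replicate 2 held the least muscle RNA and by far the most macrophage RNA. Adipocyte markers (Adipoq, Plin1, Cidec and Lep) split the same group the other way, with 1653, 98.4 and 975 CPM in PE against 528, 81.9 and 57.3 CPM in ECM. Adipocyte RNA also varied without an implant, from 40.3 to 620 CPM in uninjured muscle and from 82.2 to 365 CPM after saline. Counts and medians of the gene lists are therefore given with all 3 PE libraries and, beside them, without PE replicate 2.

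With all libraries, limma called 0 genes between ECM and PE at an adjusted p under 0.05 (0% of 14159). In that fit, 1906 genes had an adjusted p under 0.1 and the smallest was 0.0558. These near values depended on the fit. With the compared groups only, the smallest adjusted p was 0.228 and 0 genes were under 0.1. Without PE replicate 2, 1 gene was under 0.1. At an unadjusted p under 0.05, 1809 genes (12.8%) were higher and 2213 (15.6%) lower in ECM. The libraries of the groups did not overlap for 2122 genes higher in ECM (15%) and 2097 lower in ECM (14.8%). The median difference over all genes was -0.08. It was -0.42 when libraries were scaled to equal totals and 0.08 after quantile normalization, so that the directions given below are relative to the TMM scaling. The number called depended on single libraries: without PE replicate 3 the same test called 799 genes higher and 941 lower, and without PE replicate 2 it called 0 higher and 1 lower, Gulp1. Without PE replicate 2, 730 genes (5.16%) were higher and 1585 (11.2%) lower at an unadjusted p under 0.05, and the median difference was 0.00. With weights estimated for each library, the same tool called 807 genes higher and 1504 lower. The shares of all genes given here are the background for the counts in each gene list below, and none of the genes named passed the adjusted threshold between MRL ECM and PE.

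Against uninjured muscle, the groups stood at unequal distances. PE minus uninjured gave 842 genes called higher (5.95%) and 535 called lower (3.78%), but without PE replicate 2 it gave 1 higher (0.00706%) and 0 lower (0%). ECM minus uninjured gave 2 called genes (0.0141%, 538 at an unadjusted p under 0.05), Mrgprg and Rnase2a. ECM minus saline gave 1 (0.00706%, 503 unadjusted), again Mrgprg, and PE minus saline gave 0 (0%, 3298 unadjusted). These comparisons share libraries with each other.

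Among the genes with the smallest p-values between ECM and PE, given as not called, the widest difference was that of Mrgprg. Mrgprg (GRCm39 chromosome 7, 143317447 to 143320733), a Mas-related G protein-coupled receptor, had levels of 1.96, 2.15 and -0.076 in the ECM libraries and -3.65, -2.41 and -2.09 in the PE libraries. All 6 saline and uninjured libraries were at a count of 0, so that it was read in implanted muscle and mostly in ECM. The ECM minus PE difference was 4.06 ± 0.74 (SE) (adjusted p = 0.0558). This SE pools the spread of all groups, and the saline and uninjured MRL libraries, all at the floor, had none. The same holds for the comparisons of Mrgprg with saline and uninjured muscle. With the compared groups only, the adjusted p of the ECM minus PE difference was 0.236. In B6 mice the same gene differed by 3.60 and was called (adjusted p = 0.0494). Rnase2a, a ribonuclease of the eosinophil family whose close copies can share reads, was at 1.13, 1.26 and 2.09 in ECM and -1.35, -0.87 and -0.59 in PE, and was singled out after its values were seen. Its ECM minus uninjured difference was 3.80 ± 0.62 (SE) (adjusted p = 0.0486). The ECM minus PE difference of Rnase2a was 2.43 in MRL and 6.42 in B6 mice, where it was called (adjusted p = 4.14e-05). Its difference between strains had an unadjusted p of 0.000225 and was not called.

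A pair of enzymes of histidine and beta-alanine dipeptide metabolism lay on the ECM side. Carns1, which makes carnosine, was at 5.42, 5.40 and 5.73 in ECM and 4.08, 3.49 and 4.83 in PE. Gadl1, a decarboxylase of acidic amino acids, was at 4.20, 4.17 and 4.52 in ECM and 1.87, 1.97 and 3.55 in PE. Neither gene's groups overlapped, with differences of 1.38 and 1.83 (adjusted p = 0.0558 for both). Without PE replicate 2 they were 1.06 and 1.58. Reep1, which shapes the endoplasmic reticulum, differed by 1.52 ± 0.33 (SE), and Rab4a, a GTPase of recycling endosomes, by 1.09 ± 0.22 (SE). Smarca1, a chromatin remodeller, and Plcl1, a phospholipase C-like protein without catalytic activity, were higher in ECM by 0.95 and 1.30.

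On the PE side, Plcb2, a phospholipase C of blood cells, showed the widest gap. Its levels were -1.28, -1.58 and -0.19 in ECM and 2.39, 4.26 and 1.62 in PE, a difference of -3.77 ± 0.67 (SE), and -3.02 without PE replicate 2. Gnpda2, which returns glucosamine phosphate to glycolysis, was at 2.33, 2.63 and 2.43 in ECM and 3.40, 3.76 and 3.53 in PE, with little spread inside either group (difference -1.10 ± 0.18 (SE), adjusted p = 0.0558). Gulp1, an adaptor of the engulfment of dying cells, was at 2.49, 2.09 and 2.13 in ECM and 4.68, 3.03 and 4.12 in PE. Its difference was -1.71 with all libraries and -2.16 without PE replicate 2, where its adjusted p of 0.00945 was the only one under 0.05. Dhdds, the synthase of dolichol chains, Chsy1, a chondroitin sulphate synthase, and Cmtm6, a partner of PD-L1 at the membrane, differed by -0.87, -1.54 and -1.83 with no overlap. Actn4, a non-muscle actinin, and Ube2l6, the conjugating enzyme for the interferon-induced modifier ISG15, differed by -1.44 and -1.33. Of these, Ube2l6 was called in B6 mice (-1.37, adjusted p = 0.0443).

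Genes of adult muscle fibres had higher levels in ECM with all libraries, and the number under the unadjusted threshold rested on PE replicate 2. In the list of contraction genes, 15 of the 32 measured genes were higher and 0 lower in ECM at an unadjusted p under 0.05, and the median difference was 1.17 (without PE replicate 2, 2 higher, 0 lower and a median of 0.61). Ckm, the muscle creatine kinase, was at 12.63, 12.80 and 13.47 in ECM and 11.96, 10.01 and 12.18 in PE. Saline-treated muscle was at 11.99, 12.10 and 12.27, below every ECM library and close to PE replicates 1 and 3. The ECM minus PE difference was 1.58 ± 0.50 (SE), or 3.0-fold (adjusted p = 0.0707), and 0.90 without PE replicate 2. Casq1, the calcium store protein of fast fibres, was at 11.67, 11.57 and 12.30 in ECM and 10.88, 9.27 and 11.18 in PE and differed by 1.40. The thin and thick filament genes Acta1, Tpm1, Myh4 and Ttn differed by 1.17, 1.36, 1.25 and 1.21, and for each of them the lowest ECM library lay above the highest PE library. Contraction genes together took 26.5 to 29.6% of all CPM in the ECM libraries, 21.0 and 21.9% in PE replicates 1 and 3 and 7.58% in PE replicate 2.

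Myh7, Tpm3 and Atp2a2 of the same list lay the other way. Myh7, the slow myosin heavy chain, was at 2.29, 2.36 and 2.10 in ECM and 2.80, 5.65 and 3.87 in PE. Tpm3, a tropomyosin, was at 5.58, 5.44 and 5.50 and 6.12, 8.34 and 6.02, and the calcium pump Atp2a2 at 6.45, 6.72 and 6.77 and 6.95, 7.87 and 7.05. Of the 32 measured genes, only these 3 were apart in that direction, and 18 were apart in the other. All 3 were highest in PE replicate 2, the library with the least muscle RNA. All 3 PE libraries were above all 3 ECM libraries for these genes, with adjusted p-values of 0.547, 0.352 and 0.604. Saline-treated muscle was at 3.02, 9.71 and 5.50 for Myh7, so that Myh7 RNA also varied between libraries without an implant.

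Energy metabolism followed the contraction genes, also in its dependence on PE replicate 2. Of the glycolysis and glycogen genes, 18 of the 24 measured genes were higher and 1 lower in ECM at an unadjusted p under 0.05, and the median difference was 1.08 (without PE replicate 2, 4 higher, 0 lower and a median of 0.56). Phkg1, the catalytic subunit of muscle phosphorylase kinase, was at 9.33, 9.12 and 9.57 in ECM and 8.16, 6.84 and 8.70 in PE (difference 1.44 ± 0.37 (SE), adjusted p = 0.0561). Pgam2, the muscle phosphoglycerate mutase, Pfkm, the muscle phosphofructokinase, and Pkm, pyruvate kinase, differed by 1.39, 1.32 and 1.09, and none of their groups overlapped. The exception was the gene named Pgm1 in the older Ensembl annotation, at -1.06 with overlapping groups. Whether that symbol stands for the muscle phosphoglucomutase was not checked.

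Of the oxidative phosphorylation genes, 49 of the 76 measured genes were higher and 2 lower in ECM at an unadjusted p under 0.05, and the median difference was 0.64 (without PE replicate 2, 0 higher, 2 lower and a median of 0.26). Without PE replicate 2, the share of higher genes was thus under the 5.16% of all genes. The genes that went against the rest were subunit isoforms of cytochrome c oxidase used outside striated muscle. Cox6a1, the ubiquitous form of subunit VIa, was at 5.32, 4.70 and 4.93 in ECM and 7.38, 6.63 and 7.75 in PE, and its heart and muscle form Cox6a2 at 8.25, 8.42 and 7.88 and 7.55, 6.0 and 7.49. Both pairs of groups were apart, in opposite directions, with differences of -2.27 ± 0.64 (SE) and 1.17 ± 0.42 (SE). Cox8a, the ubiquitous form of subunit VIII, differed by -1.74, and Cox7a1, the muscle form of subunit VIIa, by 1.16. Without PE replicate 2 the differences were -2.57 for Cox6a1 and 0.66 for Cox6a2. In the uninjured group, Cox6a1 was at 4.87, 6.54 and 5.18, highest in the library with the most adipocyte marker RNA, whose part in the difference was not tested.

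**Figure D1:**
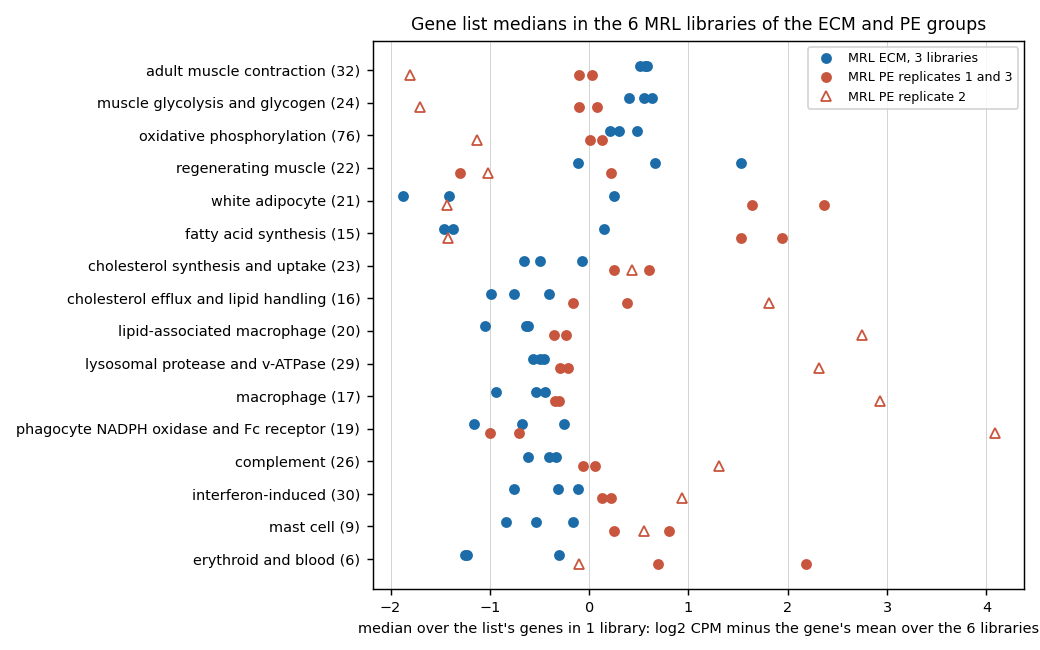
Gene list medians in each MRL library of the ECM and PE groups: for each of 16 lists (genes measured in parentheses), each point is 1 library, and the x axis is the median over the list of log2 CPM minus the gene's mean over the 6 libraries. The open triangle of PE replicate 2 lies far right for macrophage lists and far left for muscle lists, whereas PE replicates 1 and 3 lie far right for adipocyte and fatty acid synthesis lists, and all 3 PE libraries lie right of all 3 ECM libraries for cholesterol synthesis.

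The genes of muscle regrowth had a median on the ECM side. In the regenerating muscle list, 8 of the 22 measured genes were higher and 1 lower in ECM at an unadjusted p under 0.05, and the median difference was 1.45 (without PE replicate 2, 2 higher, 0 lower and a median of 1.22). Without PE replicate 1, the median was 0.89. The gene that was lower is Cdkn1c, a cell cycle inhibitor. Actc1, the cardiac actin that regrowing skeletal fibres use (GRCm39 chromosome 2, 113876266 to 113884043), was at 9.26, 9.72 and 11.31 in ECM and 5.17, 7.60 and 9.20 in PE. The lowest ECM library lay just above the highest PE library, and PE replicate 1 was the lowest by a wide margin. Saline-treated muscle was at 9.43, 7.54 and 8.97 and uninjured muscle at 8.0, 8.37 and 9.04. The difference was 2.77 ± 0.76 (SE), or 6.82-fold (adjusted p = 0.0611), 2.91 without PE replicate 2 and 0.58 in B6 mice (unadjusted p of the difference between strains = 0.0554).

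Among the myogenic factors, Myf5, which marks activated satellite cells, was at 1.52, 1.0 and 1.61 in ECM and 0.26, -0.89 and 0.81 in PE, without overlap. Myod1 was at 4.60, 5.55 and 5.81 and 3.48, 3.06 and 4.91, and Myf6, the factor of maturing fibres, at 6.29, 7.12 and 6.91 and 5.29, 4.31 and 6.37. For both of these, PE replicate 3 reached into the range of the ECM libraries, and the differences were 1.5 and 1.45. Myog and Myh3, the embryonic myosin, were more scattered, with differences of 1.72 ± 0.85 (SE) and 1.88 ± 1.27 (SE). Pax7, the satellite cell factor, differed by 0.97 in MRL and by -0.35 in B6 mice. No difference between strains was called for any of them.

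The count of tendon genes was near the background of 12.8%. In the list of tendon and cartilage genes, 2 of the 14 measured genes were higher and 0 lower in ECM at an unadjusted p under 0.05, and the median difference was 1.12 (without PE replicate 2, 1 higher, 0 lower and a median of 1.38). The median was 0.37 without ECM replicate 3 and 0.53 without PE replicate 1. Scx, the transcription factor of tendon cells, was at 1.67, 2.02 and 2.86 in ECM and 0.66, 0.22 and 1.34 in PE, and Sox9, the cartilage factor, at 2.45, 2.35 and 2.79 and -0.23, 1.70 and 2.02. Neither gene's groups overlapped (adjusted p = 0.112 and 0.125). Tnmd, a tendon membrane protein, overlapped, at 1.55, 3.09 and 4.84 in ECM and 0.67, 2.25 and 2.42 in PE.

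Fat cell genes had their highest levels in PE replicates 1 and 3, and PE replicate 2 lay with the ECM libraries. In the white adipocyte list, 0 of the 21 measured genes were higher and 5 lower in ECM at an unadjusted p under 0.05, and the median difference was -1.89 (without PE replicate 2, 0 higher, 20 lower and a median of -3.04). The median was -1.24 without PE replicate 1. Adipoq, which encodes adiponectin, was at 7.69, 5.32 and 4.88 in ECM and 9.32, 5.49 and 8.49 in PE. PE replicate 2 was thus inside the ECM range, and ECM replicate 1 was the ECM library closest to PE replicates 1 and 3. The difference was -1.80 ± 1.16 (SE) (adjusted p = 0.304) with all libraries and -2.94 without PE replicate 2. Plin1, the coat protein of fat droplets, was at 5.54, 2.83 and 1.31 in ECM and 7.79, 3.19 and 7.05 in PE, and Cidea, a droplet protein of brown and beige fat, at 3.01, 1.60 and 1.15 and 6.60, 2.08 and 7.27. For these genes the PE group was split by library, and the groups overlapped.

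The transcription factors of fat cell formation did separate the groups. Pparg was at 3.53, 1.61 and 1.42 in ECM and 5.40, 4.11 and 5.18 in PE, and Cebpa at 6.48, 4.97 and 4.57 and 8.71, 7.13 and 8.18. All 3 PE libraries lay above all 3 ECM libraries for both, PE replicate 2 included, with differences of -2.71 ± 0.74 (SE) (adjusted p = 0.0611) and -2.67 ± 0.88 (SE) (adjusted p = 0.0814). Both factors also act in macrophages, whose marker RNA was highest in PE replicate 2, the PE library with the lowest level of both factors. Which cells held the RNA of these factors was not tested. Lpl, the lipase that releases fatty acids from lipoproteins, was at 10.25, 9.26 and 7.68 in ECM and 11.33, 10.89 and 10.32 in PE. In B6 mice the median of the adipocyte list was 0.82, with Pparg at -0.96 and Adipoq at 0.62, and the strains' differences were not called.

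Fatty acid synthesis genes were high in the same PE libraries. In that list, 0 of the 15 measured genes were higher and 6 lower in ECM at an unadjusted p under 0.05, and the median difference was -1.70 (without PE replicate 2, 0 higher, 15 lower and a median of -2.41). Fasn, the fatty acid synthase, was at 7.88, 6.26 and 6.44 in ECM and 10.29, 6.48 and 10.07 in PE, and Scd1, the stearoyl-CoA desaturase, at 12.15, 9.63 and 9.11 and 13.97, 9.77 and 13.82. Acaca, which makes malonyl-CoA, and Elovl6, an elongase, differed by -2.51 and -2.89, and again PE replicate 2 lay with the ECM libraries. Elovl5, the elongase of polyunsaturated fatty acids, was the only gene of the list whose groups did not overlap. Its levels were 4.85, 4.39 and 4.21 in ECM and 6.30, 6.01 and 6.25 in PE (difference -1.70 ± 0.39 (SE), adjusted p = 0.0558), and it was called once genes averaging under 1 log2 CPM were left out (adjusted p = 0.0492).

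Cholesterol synthesis genes had lower levels in ECM than in PE, with PE replicate 2 beside the other PE libraries. The pathway runs from acetyl-CoA through mevalonate and squalene to cholesterol, and its genes are driven together by the factor SREBP2 (gene Srebf2) when cells are short of sterol. All 23 measured genes of the list had a lower mean in ECM than in PE, 15 of them at an unadjusted p under 0.05 against a background of 15.6% of all genes, and 11 without overlap. The median difference was -0.78, -0.88 without PE replicate 2 and -0.16 in B6 mice. Sqle, squalene epoxidase (GRCm39 chromosome 15, 59186869 to 59203043), was at 3.26, 2.96 and 2.21 in ECM and 4.42, 4.53 and 3.83 in PE. All PE libraries were above all ECM libraries, and saline-treated muscle at 2.57, 2.22 and 3.03 lay with ECM. The difference was -1.45 ± 0.38 (SE), so that PE was 2.73-fold higher (adjusted p = 0.0561).

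Cyp51, the sterol demethylase, was at 3.95, 3.84 and 3.80 in ECM and 5.11, 5.13 and 4.70 in PE, and Msmo1, which removes further methyl groups of the sterol, at 3.44, 2.67 and 2.99 and 4.40, 5.37 and 3.93. Dhcr7, the last enzyme of one branch, was at 3.55, 3.57 and 3.63 and 4.50, 4.57 and 4.02. The groups were apart for all 3 genes, with differences of -1.11 ± 0.30 (SE), -1.53 ± 0.39 (SE) and -0.78 ± 0.24 (SE). Hmgcs1, at the entry of the pathway, differed by -0.78 without overlap. Insig1, which holds SREBP back when sterol is plentiful, followed the fat cell genes instead, at 6.22, 4.94 and 5.13 in ECM and 7.80, 5.48 and 7.41 in PE. Srebf2 itself differed by -0.54. Adipocyte marker RNA was high in PE replicates 1 and 3 and low in PE replicate 2, where Sqle and Cyp51 were as high as in the others; in uninjured muscle Sqle was at 2.58, 3.54 and 2.49, highest in the library with the most adipocyte marker RNA, and the part of fat cells in the difference was not tested.

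Because these genes lay on the same side together, the sequence before their starts is shown. Of the 23 genes, 16 matched a promoter of the RefSeq table (GRCm38.p6), and the 250 bases before each start were searched on both strands for CCAAT, the letters bound by NF-Y, and for TCACNCCAC, the letters of a sterol regulatory element, where N is any base. CCAAT was found before 15 of the 16 genes (93.8%) and before 34.5% of all 27025 promoters of the table. The gene without it was Dhcr7, whose groups were also apart. Sqle was not among the 16. TCACNCCAC was found before 1 of the 16, Hmgcs1, and before 1.04% of all promoters. The 16 genes were all measured in these libraries, whereas the promoters of the table include genes that were not, so that the shares are not from like sets. The matches of the motifs did not overlap each other. A match is a description of letters, not a site, and its absence says only that these letters are not in this window. Shown 5′ to 3′ on each gene's strand, with matches of both motifs in capitals, are the windows of 3 genes whose groups were apart:
Hmgcs1 (chr13:119690101-119690350, plus strand): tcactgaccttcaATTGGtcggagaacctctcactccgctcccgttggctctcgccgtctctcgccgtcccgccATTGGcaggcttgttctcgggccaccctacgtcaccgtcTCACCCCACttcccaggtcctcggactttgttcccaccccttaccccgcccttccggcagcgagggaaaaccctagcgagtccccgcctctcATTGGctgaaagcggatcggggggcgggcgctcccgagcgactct
Cyp51 (chr5:4104698-4104947, minus strand): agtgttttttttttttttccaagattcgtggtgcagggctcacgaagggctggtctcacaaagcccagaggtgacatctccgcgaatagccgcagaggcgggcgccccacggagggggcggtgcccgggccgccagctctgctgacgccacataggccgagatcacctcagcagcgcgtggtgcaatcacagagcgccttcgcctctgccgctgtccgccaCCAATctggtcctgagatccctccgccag
Msmo1 (chr8:64733579-64733828, minus strand): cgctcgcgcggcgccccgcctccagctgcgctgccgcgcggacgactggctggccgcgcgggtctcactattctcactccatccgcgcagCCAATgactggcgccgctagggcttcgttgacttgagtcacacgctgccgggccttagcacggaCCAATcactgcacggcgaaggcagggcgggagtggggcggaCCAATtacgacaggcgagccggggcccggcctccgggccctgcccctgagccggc

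**Figure D2:**
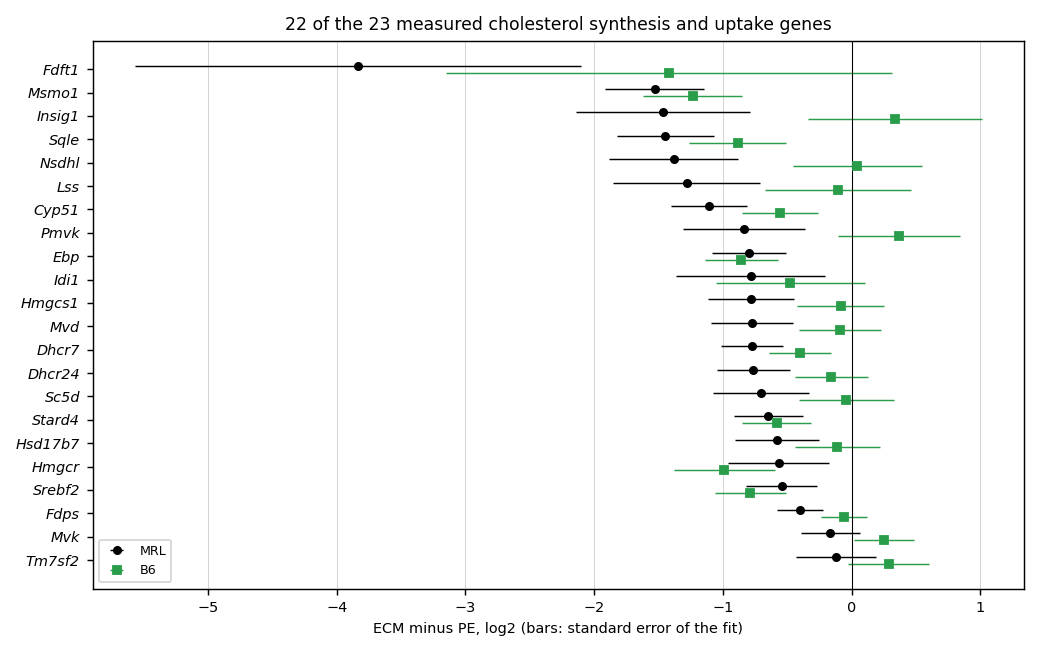
ECM minus PE (x axis, log2, bars: standard error of the fit) for 22 of the 23 measured genes of cholesterol synthesis and uptake, in MRL (black circles) and B6 (green squares), 3 ECM and 3 PE libraries in each strain. All 22 MRL values shown lie left of 0, and the B6 values lie on both sides of it, with a median over the 23 genes of -0.16.

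Genes that handle lipid taken up by cells were likewise at lower levels in ECM. In the list of cholesterol efflux and lipid handling genes, 0 of the 16 measured genes were higher and 11 lower in ECM at an unadjusted p under 0.05, 10 of them without overlap, and the median difference was -1.66 (without PE replicate 2, 0 higher, 7 lower and a median of -0.95). Cd36, the receptor for fatty acids and oxidised lipoproteins (GRCm39 chromosome 5, 17986432 to 18094067), was at 8.48, 7.87 and 6.26 in ECM and 9.92, 10.47 and 9.21 in PE. Every PE library was above every ECM library, the saline libraries at 8.0, 8.88 and 8.24 and the uninjured ones at 8.42, 8.69 and 7.76. The difference was -2.33 ± 0.57 (SE), or 5.02-fold higher in PE (adjusted p = 0.0558), and -2.27 in B6 mice.

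Npc2, which carries cholesterol out of lysosomes, was at 6.33, 5.75 and 6.34 in ECM and 7.88, 8.99 and 7.50 in PE (difference -1.98 ± 0.49 (SE)). Abca1, the pump that loads cholesterol onto apolipoprotein A-I, was at 5.92, 5.0 and 5.02 and 6.82, 7.55 and 6.40 (difference -1.61 ± 0.42 (SE)). Apoe, the apolipoprotein secreted by macrophages and fat cells, was at 8.58, 7.85 and 8.39 and 9.87, 10.77 and 9.22 (difference -1.68 ± 0.58 (SE)). For each of these 3 genes the groups were apart with PE replicate 2 the highest library. Scarb1, the receptor for high-density lipoprotein, and Pltp, the phospholipid transfer protein, differed by -1.04 and -1.66, and Nr1h3, the sterol-sensing receptor LXR-alpha, by -0.56. Lipa, the lysosomal acid lipase, was at 4.86, 4.63 and 4.33 in ECM and 5.26, 10.20 and 5.31 in PE, so that its difference of -2.32 came down to -0.68 without PE replicate 2. After saline, Npc2 was at 6.55, 5.57 and 5.82, close to the ECM range, and in uninjured muscle it was at 5.38, 7.05 and 5.80.

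Genes of lipid-associated macrophages, a state of macrophages that take up fat and debris, fell into separate patterns by library. In that list, 0 of the 20 measured genes were higher and 10 lower in ECM at an unadjusted p under 0.05, and the median difference was -1.64 (without PE replicate 2, 0 higher, 6 lower and a median of -0.45). The lipid droplet and fatty acid binding members were high in all PE libraries: Plin2, a droplet coat protein, was at 6.42, 5.82 and 5.73 in ECM and 7.49, 9.15 and 7.42 in PE, and Fabp5 at 2.70, 1.56 and 2.45 and 4.13, 6.04 and 3.62. Their differences were -2.02 ± 0.47 (SE) and -2.36 ± 0.55 (SE), and -1.46 and -1.63 without PE replicate 2.

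The members that define the state were high in PE replicate 2 alone. Gpnmb, a glycoprotein of lipid-loaded macrophages, was at 4.96, 3.53 and 5.28 in ECM and 1.94, 12.63 and 5.69 in PE, and the receptor Trem2 at 1.91, 2.48 and 3.74 and 0.99, 9.25 and 2.60. Mmp12, the macrophage elastase, was at 4.98, 3.04 and 4.78 and -0.90, 12.81 and 5.53, and Spp1, osteopontin, at 4.17, 5.07 and 2.33 and -0.60, 10.55 and 5.21. PE replicate 1 was the lowest of the 6 libraries for each of these 4 genes, and without PE replicate 2 the ECM minus PE differences were positive, at 0.78, 0.91, 1.96 and 1.55. For these genes the direction between ECM and PE therefore rested on 1 library.

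Acp5, tartrate-resistant acid phosphatase, is made by osteoclasts and by giant cells around particles. It had the largest difference of the fusion list (GRCm39 chromosome 9, 22038023 to 22049355): 4.28, 2.74 and 2.64 in ECM and 6.42, 6.78 and 5.97 in PE. The PE libraries were close to each other and above every other MRL library, with 4.58, 2.76 and 2.82 after saline and 1.99, 5.08 and 3.36 in uninjured muscle. The difference was -3.17 ± 0.83 (SE), 9.0-fold higher in PE (adjusted p = 0.0561), and -2.97 without PE replicate 2. The higher libraries of the saline and uninjured groups were those with the most adipocyte marker RNA, and the part of fat tissue in the PE level was not tested. Mmp9, the gelatinase of osteoclasts and neutrophils, was also apart, at 2.37, 1.10 and 1.05 in ECM and 3.51, 5.95 and 3.15 in PE. Ctsk, the collagen-degrading cathepsin of osteoclasts, was at 3.68, 3.67 and 5.57 and 3.89, 10.88 and 4.53, high in PE replicate 2 alone. Nfatc1, the factor that drives osteoclast formation, lay the other way, at 5.10, 5.16 and 5.20 and 4.29, 4.43 and 4.60. Over the whole fusion list, 0 of the 18 measured genes were higher and 5 lower in ECM at an unadjusted p under 0.05, and the median difference was -0.82 (without PE replicate 2, 0 higher, 2 lower and a median of 0.014).

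**Figure D3:**
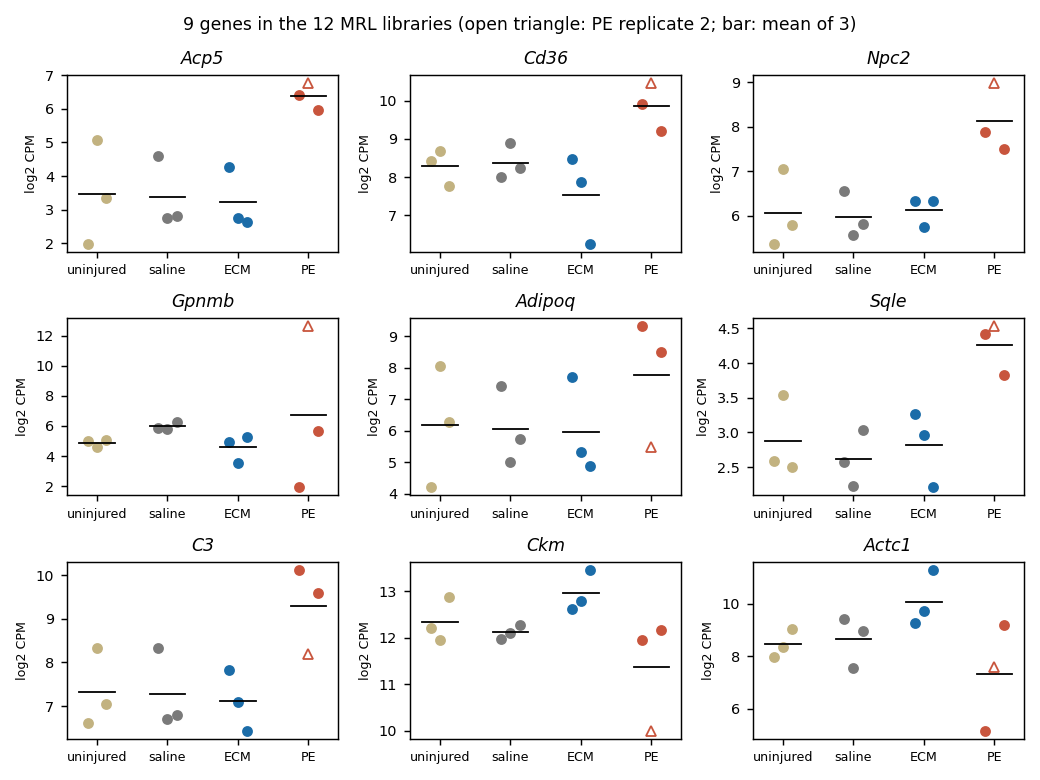
Levels (y axis, log2 CPM) of 9 genes in the 12 MRL libraries by treatment, with 1 point per library, a bar at the mean of 3 and PE replicate 2 as an open triangle. Acp5, Cd36, Npc2 and Sqle are higher in all 3 PE libraries than in the ECM libraries, Gpnmb is high in PE replicate 2 alone, Adipoq is high in PE replicates 1 and 3, and Ckm and Actc1 are higher in ECM.

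In the lysosome list, 1 of the 29 measured genes were higher and 14 lower in ECM at an unadjusted p under 0.05, 14 without overlap, and the median difference was -1.03 (without PE replicate 2, 1 higher, 4 lower and a median of -0.091). Ctsb, a cathepsin protease, was at 9.19, 8.95 and 9.04 in ECM and 9.86, 12.26 and 9.68 in PE. Atp6v1a and Atp6v1h, subunits of the pump that acidifies lysosomes, differed by -1.62 and -1.25 and were apart, and by -0.81 and -0.80 without PE replicate 2. Tfeb, the factor that switches lysosome genes on, was the exception and higher in ECM, at 7.14, 6.53 and 6.99 against 5.92, 5.76 and 6.44 in PE (difference 0.85 ± 0.28 (SE)).

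General macrophage genes differed through PE replicate 2. In the macrophage list, 0 of the 17 measured genes were higher and 5 lower in ECM at an unadjusted p under 0.05, and the median difference was -1.52 (without PE replicate 2, 0 higher, 1 lower and a median of -0.20). Cd68 was at 2.75, 3.07 and 3.20 in ECM and 3.07, 8.84 and 3.35 in PE, and Emr1, which encodes F4/80, at 2.78, 2.90 and 3.16 and 3.26, 6.54 and 2.99. The other PE libraries were at or close to the ECM range for both. Cd14, a receptor for bacterial lipopolysaccharide, and Csf1r, the receptor for macrophage colony-stimulating factor, were the members whose groups were apart. Cd14 was at 1.76, 1.73 and 0.89 in ECM and 2.40, 6.26 and 2.78 in PE, and Csf1r at 4.58, 4.75 and 4.03 and 5.23, 7.78 and 5.09. The integrin Itgb2, shared by leukocytes, reached 10.55 in PE replicate 2, against 3.03 and 3.90 in the other PE libraries. Cybb, the core of the phagocyte NADPH oxidase, was at 4.23, 3.61 and 3.56 in ECM and 3.69, 9.76 and 4.02 in PE, and the median of the oxidase and Fc receptor list moved from -1.53 to 0.11 without that library.

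Resident macrophage genes were lower in ECM in a less uneven way: 0 of the 14 measured genes were higher and 4 lower in ECM at an unadjusted p under 0.05, and the median difference was -0.81 (without PE replicate 2, 0 higher, 2 lower and a median of -0.69). It was -0.42 without ECM replicate 3. Folr2, the folate receptor of tissue macrophages, was at 2.84, 3.50 and 2.13 in ECM and 3.98, 6.63 and 3.47 in PE, and Sepp1, selenoprotein P, at 7.81, 7.49 and 7.68 and 8.50, 9.14 and 8.21. Only Sepp1 and Pf4 of this list had groups that were apart.

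Neutrophil and interleukin-1 genes were at low levels in most MRL libraries. In the neutrophil list, 0 of the 15 measured genes were higher and 2 lower in ECM at an unadjusted p under 0.05, and the median difference was -0.87 (without PE replicate 2, 0 higher, 1 lower and a median of 0.17). S100a8, a calcium-binding protein abundant in neutrophils, was at -0.60, -1.20 and -0.35 in ECM and -1.73, 2.17 and -0.44 in PE, and Il1b at -0.56, -1.48 and -3.65 and -1.64, 3.08 and -2.61. PE replicate 2 was the highest and PE replicate 1 lower than every ECM library for S100a8. Il1rn, the inhibitor of interleukin-1, was at -0.44, -2.66 and -0.91 and -1.67, 6.97 and 0.78, and Il1r1, its signalling receptor, was apart at 3.47, 3.10 and 3.25 and 4.26, 4.63 and 3.86. In the interleukin-1 and inflammatory list, 0 of the 19 measured genes were higher and 4 lower in ECM at an unadjusted p under 0.05, and the median difference was -0.98 (without PE replicate 2, 0 higher, 1 lower and a median of 0.1). In the chemokine list, 0 of the 35 measured genes were higher and 6 lower in ECM at an unadjusted p under 0.05, and the median difference was -0.92 (without PE replicate 2, 1 higher, 1 lower and a median of -0.049). The defining neutrophil markers Ly6g and Retnlg and all but 1 of 6 eosinophil markers were not among the genes measured, so that neither cell type could be checked through them. Siglecf, the eosinophil marker measured, was at 0.0788, 0.0656 and 0 CPM in ECM and at 0.0326, 3.89 and 0 CPM in PE. It was thus high in PE replicate 2 alone, and some macrophages also carry it.

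Alternative activation, the macrophage state driven by interleukin-4, is the state that the ECM implant is known for. In that list, 2 of the 17 measured genes were higher and 1 lower in ECM at an unadjusted p under 0.05 in MRL, and the median difference was -0.44 (without PE replicate 2, 0 higher, 1 lower and a median of -0.27). Over the list, 5 genes had a higher mean in MRL ECM and 12 a lower one, and the differences ranged from -1.55 to 3.24. The B6 median was 0.56. Chil3, a chitinase-like protein, was at -3.65, -3.01 and -1.58 in MRL ECM and -2.10, 0.37 and -1.87 in MRL PE. In B6 it was at 8.91, 4.36 and 5.94 in ECM and 0.74, 2.62 and 0.62 in PE, so that the MRL libraries all lay below the B6 ones. Its difference was -1.55 in MRL and 5.08 in B6, where it was called (adjusted p = 0.0382). The difference between strains was -6.63 ± 1.29 (SE), with an unadjusted p of 5.57e-05 and an adjusted p of 0.788 over all genes.

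Arg1, arginase 1, was at 1.30, 1.25 and 1.47 in MRL ECM and -0.20, 1.54 and -0.22 in MRL PE, against 8.51, 5.19 and 5.88 in ECM and 1.40, 3.77 and 2.19 in PE in B6. ECM was thus above 2 of the 3 PE libraries in MRL, and the groups were widely apart in B6, where it was called (adjusted p = 0.0481; differences 0.97 and 4.07, unadjusted p of the difference between strains = 0.0164). Mgl2, the lectin CD301b, was at 3.35, 3.83 and 3.16 and 4.50, 3.31 and 4.13 in MRL, and its difference was -0.53 in MRL and 2.55 in B6 (unadjusted p = 0.000881). Cd163 and Mrc1, scavenger and mannose receptors, differed by -0.55 and -0.59 in MRL and by 1.45 and 0.32 in B6. Retnla, a secreted resistin-like protein, scattered inside the MRL ECM group from -2.76 to 5.86, with -3.65, 2.15 and -3.22 in PE. Tgm2, a transglutaminase, was apart and higher in PE (-0.78), and Pink1, a kinase of mitochondrial quality control, apart and higher in ECM (0.94). The other gene higher in ECM was Maf, a transcription factor of macrophages.

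No gene was called for a difference between strains in ECM minus PE (0% of 14159, smallest adjusted p 0.788). At an unadjusted p under 0.05 there were 522 genes (3.69%). In B6 mice alone the same fit called 4 genes higher (0.0283%) and 28 lower (0.198%) in ECM. Of these 32 genes, 31 had the same sign in MRL, and the exception was Chil3. The share of all genes with the same sign in both strains was not computed. In MRL, 17 of the 32 had an unadjusted p under 0.05. Among all genes, 12.8% were higher and 15.6% lower in MRL ECM at that threshold. The B6 and MRL differences are taken from separate libraries. The fit pools the spread of each gene over all 24 libraries, however, so that the p-values of the strains are not independent of each other. Groups that did not overlap in both strains numbered 788 genes higher in ECM, which is 37.1% of the MRL and 38% of the B6 genes of that kind, and 861 lower in ECM, which is 41.1% and 31.2%. Among all genes, 14.6% were higher and 19.5% lower in B6 ECM without overlap. S100a8 and S100a9 differed by -4.68 and -5.07 in B6 and by -0.72 and -0.79 in MRL (unadjusted p of the difference between strains = 0.00503 and 0.00860), and Il1b by -5.66 and -1.51 (0.0135). All 3 genes were called in B6 (adjusted p = 0.0443, 0.0481 and 0.0443). Without MRL PE replicate 2, 269 genes were called between strains, and with library weights 1886.

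**Figure D4:**
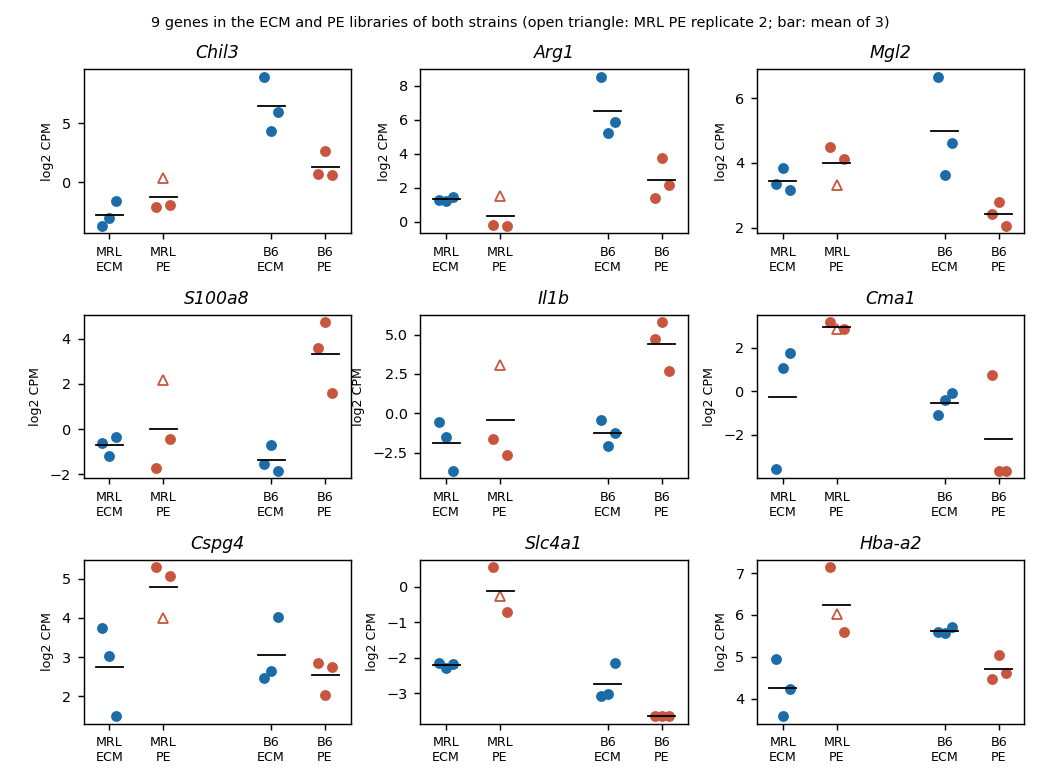
Levels (y axis, log2 CPM) of 9 genes in the ECM and PE libraries of MRL and B6 mice, 1 point per library, with a bar at the mean of 3 and MRL PE replicate 2 as an open triangle. Chil3, Arg1 and Mgl2 are higher in B6 ECM than in B6 PE, whereas the MRL groups overlap, S100a8 and Il1b are higher in B6 PE, and Slc4a1 and Hba-a2 are higher in PE in MRL and higher in ECM in B6.

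Complement genes had lower levels in ECM than in PE. In that list, 1 of the 26 measured genes were higher and 11 lower in ECM at an unadjusted p under 0.05, 11 without overlap, and the median difference was -1.21 (without PE replicate 2, 1 higher, 6 lower and a median of -0.37). C3, the central complement protein, was at 7.83, 7.09 and 6.44 in ECM and 10.13, 8.18 and 9.60 in PE, a difference of -2.19 ± 0.63 (SE), and -2.75 without PE replicate 2. PE replicates 1 and 3 were the highest, and C3 in the uninjured group, at 6.61, 8.33 and 7.04, was highest in the library with the most adipocyte marker RNA. C2 and Cfb, which form the convertases of the classical and alternative pathways, were apart. C2 was at 2.69, 2.31 and 2.69 in ECM and 4.31, 3.73 and 3.60 in PE, and Cfb at 4.65, 4.41 and 3.98 and 6.20, 5.59 and 5.54. Clu, clusterin, and Cd55, which both hold complement back, lay the other way, with differences of 0.77 and 0.40 and no overlap.

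Interferon-induced genes also had lower levels in ECM. In that list, 0 of the 30 measured genes were higher and 14 lower in ECM at an unadjusted p under 0.05, 10 without overlap, and the median difference was -0.85 (without PE replicate 2, 0 higher, 6 lower and a median of -0.59). Gbp2 and Gbp3, guanylate-binding proteins, differed by -0.96 and -0.87, Zbp1, a sensor of nucleic acid, by -1.42, and the chemokine Cxcl9 by -1.74, all without overlap. The B6 median of the list was -1.15. In the MHC class II list, 0 of the 11 measured genes were higher and 1 lower in ECM at an unadjusted p under 0.05, which was H2-DMa at -1.79, and the median difference was -0.49 (without PE replicate 2, 1 higher, 0 lower and a median of 0.044). The direction of the median thus turned with that library.

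The B cell markers Cd79a and Ms4a1 were not among the genes measured. In the B and plasma cell list, 2 of the 9 measured genes were higher and 0 lower in ECM at an unadjusted p under 0.05, and the median difference was -0.18 (without PE replicate 2, 2 higher, 0 lower and a median of 0.13). Ighm, the heavy chain of immunoglobulin M, was at 6.37, 5.50 and 6.82 in ECM and 4.64, 5.04 and 5.26 in PE, and Pax5, the B cell factor, at 1.53, -0.47 and 0.51 and -1.48, -0.63 and -3.27, both apart. In the T cell list, 0 of the 13 measured genes were higher and 0 lower in ECM at an unadjusted p under 0.05, and the median difference was 0.10 (without PE replicate 2, 0 higher, 0 lower and a median of 0.18). Its sign turned when libraries were scaled to equal totals, without ECM replicate 3 (-0.20) and without PE replicate 1 (-0.088).

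Mast cell proteases had lower levels in ECM, and PE replicate 2 lay beside the other PE libraries. In the mast cell list, 0 of the 9 measured genes were higher and 6 lower in ECM at an unadjusted p under 0.05, and the median difference was -1.07 (without PE replicate 2, 0 higher, 4 lower and a median of -1.15). Cpa3, carboxypeptidase A3, was at 1.83, 1.48 and 0.68 in ECM and 3.14, 2.49 and 2.48 in PE, the tryptase Tpsb2 at 2.02, 1.59 and 1.60 and 3.08, 2.82 and 2.52, and the chymase Mcpt4 at 2.79, 1.95 and 1.72 and 3.50, 3.06 and 3.11. The groups were apart for all 3 genes (adjusted p = 0.0967, 0.0908 and 0.155). Cma1, another chymase, was at -3.57, 1.06 and 1.74 and 3.17, 2.84 and 2.84, with ECM replicate 1 near the floor, and at -1.10, -0.42 and -0.076 and 0.75, -3.65 and -3.65 in B6 (unadjusted p of the difference between strains = 0.00552). Summed mast cell markers were at 10.3, 8.51 and 7.98 CPM in ECM, 28.9, 20.9 and 21.1 CPM in PE and 13.9, 12.3 and 12.3 CPM after saline.

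Red cell genes had lower levels in ECM than in PE. In the erythroid list, 0 of the 6 measured genes were higher and 5 lower in ECM at an unadjusted p under 0.05, and the median difference was -1.95 (without PE replicate 2, 0 higher, 6 lower and a median of -2.31). Hba-a1, an alpha globin gene, was at 8.64, 7.62 and 7.27 in ECM and 11.21, 8.27 and 9.62 in PE, and Hbb-bt, a beta globin gene, at 4.64, 3.61 and 3.33 and 7.29, 4.89 and 5.82. Globin levels also varied within the groups without implant, and Hbb-bt was at 6.36, 3.98 and 4.11 in uninjured and 4.47, 6.36 and 6.37 in saline-treated muscle. The alpha globin genes are near-identical copies, so that reads may be shared between them.

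Matrix genes were mixed. In the collagen list, 2 of the 30 measured genes were higher and 9 lower in ECM at an unadjusted p under 0.05, and the median difference was -0.69 (without PE replicate 2, 0 higher, 3 lower and a median of -0.022). Col1a1, the main chain of scar collagen, was at 8.23, 8.59 and 9.86 in ECM and 9.09, 12.10 and 8.45 in PE, with overlap and a difference of -0.99 ± 0.73 (SE). Col5a1, a chain of the collagen that starts fibrils, and Col18a1, a chain of basement membranes, were apart, at -1.19 and -1.43. Serpinh1, the collagen chaperone, was at 7.03, 6.51 and 6.73 in ECM and 7.93, 8.33 and 7.72 in PE, and Pdgfra, the receptor of fibro-adipogenic progenitors, at 5.42, 5.60 and 4.68 and 6.22, 6.70 and 5.98. Both were apart, with differences of -1.23 ± 0.35 (SE) and -1.06 ± 0.32 (SE). Sparc, a matricellular protein, was at 8.93, 4.75 and 9.16 in ECM, where replicate 2 lay far below the rest, and at 9.50, 10.77 and 9.39 in PE. In the fibrosis list, 3 of the 29 measured genes were higher and 8 lower in ECM at an unadjusted p under 0.05, and the median difference was -0.74 (without PE replicate 2, 4 higher, 3 lower and a median of 0.10). Its ECM side held Tgfb2, a transforming growth factor, and Cyr61, a matricellular target of YAP, at 1.03 and 0.97, both apart.

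Among the proteases of the matrix, 1 of the 28 measured genes were higher and 10 lower in ECM at an unadjusted p under 0.05, and the median difference was -0.88 (without PE replicate 2, 0 higher, 4 lower and a median of -0.24). Adamts2, which trims procollagen, was at 5.60, 5.42 and 5.34 in ECM and 6.78, 7.31 and 6.52 in PE (difference -1.42 ± 0.32 (SE), adjusted p = 0.0558). Adamts12 and Adam12, proteases of mesenchymal cells, differed by -1.75 and -2.45, and Mmp19 by -3.07, all without overlap. Without PE replicate 2, Adamts2 was at -1.20, Adamts12 at -1.64, Adam12 at -2.11 and Mmp19 at -1.20. Met, the receptor for hepatocyte growth factor, was at 4.54, 4.51 and 4.30 in ECM and 5.34, 6.40 and 4.92 in PE. In the list of HGF, Met and plasminogen activation, 0 of the 12 measured genes were higher and 4 lower in ECM at an unadjusted p under 0.05, and the median difference was -0.61 (without PE replicate 2, 1 higher, 1 lower and a median of 0.29).

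Vessel, nerve and cycling genes gave few genes under the unadjusted threshold with all libraries. In the endothelial list, 0 of the 20 measured genes were higher and 1 lower in ECM at an unadjusted p under 0.05, and the median difference was -0.14 (without PE replicate 2, 0 higher, 5 lower and a median of -0.41). The share of all genes lower without PE replicate 2 was 11.2%. With all libraries, 17 of the 20 endothelial genes had a lower mean in ECM and 3 a higher one. In the smooth muscle list, 2 of the 13 measured genes were higher and 1 lower in ECM at an unadjusted p under 0.05, and the median difference was 0.29 (without PE replicate 2, 0 higher, 2 lower and a median of 0.33). In the Schwann cell list, 0 of the 14 measured genes were higher and 3 lower in ECM at an unadjusted p under 0.05, and the median difference was -0.34 (without PE replicate 2, 0 higher, 1 lower and a median of -0.12). Cspg4, which encodes NG2 of pericytes, was at 3.74, 3.03 and 1.49 in ECM and 5.29, 4.0 and 5.06 in PE, a difference of -2.03 in MRL and 0.50 in B6 (unadjusted p of the difference between strains = 0.00498). Pmp22, a myelin protein, differed by -1.22. In the proliferation list, 1 gene was higher (Tk1, thymidine kinase, 0.69) and 1 lower (Foxm1, a factor of mitosis, -1.75) of 25, and the median difference was -0.39 (without PE replicate 2, 1 higher, 0 lower and a median of 0.21). In the hypoxia list, 1 of the 18 measured genes were higher and 2 lower in ECM at an unadjusted p under 0.05, and the median difference was -0.11 (without PE replicate 2, 1 higher, 1 lower and a median of -0.15). In the eosinophil list, 0 of the 2 measured genes were higher and 0 lower in ECM at an unadjusted p under 0.05, and the median difference was -0.50 (without PE replicate 2, 0 higher, 0 lower and a median of 0.55).

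Both implants were also set beside the saline control, whose libraries the following comparisons share. The median difference from saline was, for cholesterol synthesis, 0.11 for ECM and 0.81 for PE (0.83 without PE replicate 2). For lipid handling it was -0.10 for ECM and 1.48 for PE (0.79 without PE replicate 2). The adipocyte list was at -0.24 for ECM and 1.73 for PE (2.80 without PE replicate 2). Complement was at -0.12 for ECM and 1.03 for PE (0.37 without PE replicate 2), and interferon-induced genes at 0.47 for ECM and 0.99 for PE (1.04 without PE replicate 2). Macrophage genes were at 0.09 for ECM and 1.56 for PE (0.36 without PE replicate 2). Contraction genes were at 0.18 for ECM and -0.98 for PE (-0.40 without PE replicate 2), glycolysis at 0.40 for ECM and -0.74 for PE (-0.22 without PE replicate 2), and regenerating muscle at 0.31 for ECM and -1.22 for PE (-0.99 without PE replicate 2). These medians describe lists and carry no test.

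**Figure D5:**
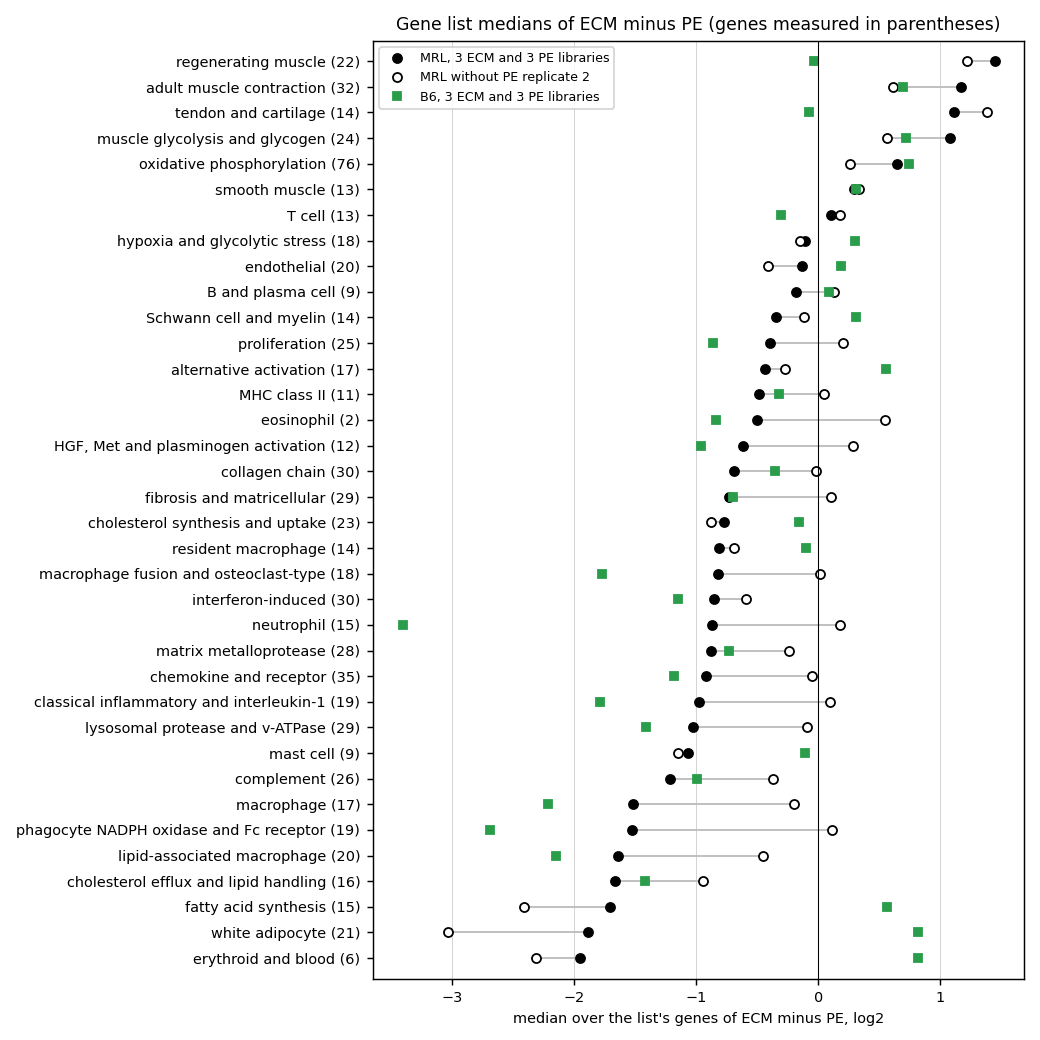
Median over each of 36 gene lists (genes measured in parentheses) of ECM minus PE (x axis, log2) in MRL with all 6 libraries (filled circles), in MRL without PE replicate 2 (open circles, joined by a line) and in B6 (green squares). Muscle lists lie right of 0 with and without PE replicate 2, cholesterol synthesis, adipocyte and mast cell lists lie left of 0 in both, and macrophage lists lie closer to 0 without that library.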

How the data were processed

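Bulk RNA of whole mouse quadriceps was poly-A selected and sequenced with spike-in controls, in 8 groups of 3 libraries. The authors quantified transcripts of Ensembl GRCm39 with kallisto, summed them to genes with tximport, kept genes above 1 CPM in at least 3 libraries, scaled libraries with TMM and deposited log2 CPM. Read counts were not used here and could not be recovered, and a count test was not run. The study lists read totals per library, which are not used here.

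Here, limma 3.58.1 (R 4.3.3) was fitted to the deposited log2 CPM of all 24 libraries, with a mean for each group, a level-dependent prior variance and Benjamini-Hochberg adjustment over 14159 genes. ECM minus PE within MRL, the same within B6 and their difference were tested two-sided at an adjusted p under 0.05. With 3 libraries against 3, an exact permutation test cannot go below 0.1 for a single gene, so none was run. Fits were tested on simulated data with independent noise, the same spread in all libraries for a gene and no outlying library. That test therefore does not cover a library such as PE replicate 2. Gene symbols are those of an older Ensembl annotation, and coordinates come from GENCODE M39 for GRCm39 by symbol (715 of 731 genes matched).

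The 36 gene lists, the members and the tests were chosen with earlier results of these data known. Named genes were up to 15 per direction with the smallest p among genes whose groups did not overlap, up to 5 per list with the largest difference, genes the study names, and up to 10 called between strains (0 here); all other list members named were chosen after their values were seen. Alternatives were log2(CPM + 1), a filter at a mean of 1 log2 CPM, equal totals, quantile normalization, the compared groups only, library weights, a constant prior variance, the replicate number as a block, and each library left out; fits without MRL PE replicate 2 on the compared groups alone and against uninjured muscle, and saline medians without it, were added after seeing the data. Deviations of same-numbered ECM and PE libraries correlated at 0.21, -0.10 and -0.26 in MRL, so that the numbers were not taken as pairs. Promoters were taken from RefSeq (GRCm38.p6) by symbol. Some genes are not reported here.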

Additional observations from a re-analysis of the deposited data

Results flagged for a closer look

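The red cell genes Slc4a1, which encodes the anion exchanger of erythrocytes, and Hba-a2, an alpha globin gene, lay in opposite directions in the 2 strains with no overlap in either. In MRL mice, Slc4a1 was at -2.14, -2.30 and -2.18 in ECM and 0.55, -0.24 and -0.70 in PE, a difference of -2.08 ± 0.73 (SE). In B6 mice it was at -3.07, -3.02 and -2.14 in ECM and -3.65, -3.65 and -3.65 in PE, a fitted difference of 0.91 that rests on a count of 0 in all PE libraries. Hba-a2 was at 4.94, 3.58 and 4.24 and 7.14, 6.01 and 5.58 in MRL (difference -1.99 ± 0.73 (SE)) and at 5.58, 5.57 and 5.70 and 4.48, 5.04 and 4.61 in B6 (difference 0.91). The difference between strains had an unadjusted p of 0.00928 for Slc4a1 and 0.0116 for Hba-a2, and neither passed the adjusted threshold over all genes (0.997 and 0.997). In all, 25 of 14159 genes (0.177%) had groups that were apart in both strains in opposite directions, 9 of them higher and 16 lower in MRL ECM. Erythroid markers summed to 2295, 373 and 396 CPM in uninjured MRL muscle, so that blood RNA also varied between libraries without an implant, and its part in these values was not tested.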

How the results depend on the processing

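No gene was called between MRL ECM and PE with the compared groups only, with a constant prior variance or without any 1 of the 3 ECM libraries or PE replicate 1. Genes called higher and lower numbered 5 and 21 with log2(CPM + 1), 59 and 178 with the filter on low values, 33 and 684 with equal totals, 3 and 5 with quantile normalization, 807 and 1504 with library weights (whose estimation did not fully converge), and 4 and 62 with the compared groups only and without PE replicate 2. Leaving out 1 library gave 0 to 799 higher and 0 to 941 lower, with the highest counts without PE replicate 3 (without PE replicate 2, 0 and 1). With the replicate number as a block, 150 genes were called higher and 290 lower. The correlations of same-numbered libraries did not show a pairing, and only ECM replicate 1 correlated best with the PE library of its own number. The difference between strains called 1 gene with log2(CPM + 1), 1886 with library weights, 0 to 269 with 1 library left out (269 without PE replicate 2, 1 without B6 ECM replicate 3) and 0 with the block. List medians kept their sign in 26 of 36 lists without PE replicate 2, in 31 with library weights and in 34 with equal totals and with quantile normalization. The spread between replicates used next includes PE replicate 2, so that lists which this library sets apart could shift widely without counting as moved. Macrophage genes went from -1.52 to -0.20 without PE replicate 2 and did not count, at a spread of 1.34. Contraction genes went from 1.17 to 0.45 with quantile normalization and did not count, at a spread of 0.72. Medians that moved by more than the spread between replicates were, with equal totals, alternative activation -0.79, mast cell -1.41, cholesterol synthesis -1.12, endothelial -0.48, Schwann cell -0.68 and hypoxia -0.46. They were -0.37 for complement and -0.89 for lipid handling with library weights, 1.25 for B and plasma cell and -0.30 for hypoxia with the filter on low values, and -0.10 for Schwann cell with quantile normalization. With 1 library left out, medians ranged from -1.23 to -0.049 for chemokines and from -1.45 to -0.37 for complement (both highest without PE replicate 2), from -1.39 to -0.85 for mast cell (lowest without ECM replicate 1) and from -0.67 to -0.12 for Schwann cell. The compared groups alone without PE replicate 2 gave -0.049, -0.37 and -0.12 for chemokines, complement and Schwann cell. With 1 library left out, ECM minus PE ranged from -4.57 to 0.78 for Gpnmb, -3.22 to 0.91 for Trem2, -4.90 to 1.96 for Mmp12, -4.02 to 1.55 for Spp1, -3.40 to 0.096 for Ctsk, -4.77 to 0.90 for Itgax, -2.62 to 0.23 for Il1b, -1.59 to 0.36 for S100a8, -1.82 to 0.76 for S100a9 and -1.70 to 0.12 for Col1a1, each above 0 only without PE replicate 2. Library weights gave 0.33 for Trem2, 0.63 for Mmp12, 1.22 for Spp1, 0.69 for Il1b and 0.18 for S100a9. Of 146 named genes, 81 passed the threshold with library weights, 66 without PE replicate 3, 48 with equal totals, 39 with the block, 24 with the filter, 12 with log2(CPM + 1) and 5 with quantile normalization. The cause of these shifts was not tested. Genes near the count floor, such as Chil3 and Il1b, are limited by depth, and their counting error is not given by log2 CPM.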
